A study of Mus musculus with 18 samples.

Results

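Spp1, Cxcl14 and Ccl21b encode 3 secreted proteins and are followed here through 18 mouse cochlear RNA-seq libraries. They are 3 of 47729 genes in the deposited tables, and all 3 passed the level filter that left 20463 genes for testing. They were chosen by their TPM in these libraries, for steep rises during differentiation in culture. Their changes among the culture groups, and between culture and native groups, are therefore given as a description without a test, and tests are kept for comparisons among the native sorts.

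The libraries form 9 groups of 2 replicates. Sensory epithelium from the cochlea at postnatal day 2 gave 3 native groups, named by the gene used in the title (Atoh1, Lgr5 and Sox2). Atoh1 marks hair cells, the mechanosensory cells. Lgr5 and Sox2 mark supporting cells, the epithelial cells beside them. The other 6 groups are primary cochlear organoid cultures titled LCP, an abbreviation that the sources used here do not spell out. Differentiation days D0, D2, D4 and D10 were sampled without sorting, and D0 and D10 also after a sort. The labels of all samples carry 1 treatment protocol, tamoxifen to Sox2-CreER pups with a β-cateninflox(Exon3) allele and to littermate controls, killed at later ages than the native samples here. It names no group of these titles, so whether any library carries that allele or treatment is not known. Strain, reporter alleles, culture medium and the marker used to sort the cultures are given by none of the sources used here. Values are TPM, a transcript abundance scaled by length and to a fixed library total, so the read depth is unknown.

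The labels were checked against 10 hair cell markers. Their summed TPM was 1543 and 2366 in the Atoh1 sort, 652 and 1190 in the Lgr5 sort, and 1000 and 1164 in the Sox2 sort. Hair cell transcripts were thus present in all 3 native sorts. The sum was 19.7 and 5.66 in sorted LCP D0 against 1387 and 1063 in sorted LCP D10. In bulk samples like these, fewer cells of a type and less RNA per cell cannot be told apart.

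Spp1 encodes osteopontin, an acidic phosphoprotein of the SIBLING family that binds integrins through an RGD motif and also binds CD44. It is known from bone matrix and macrophages, and in the inner ear from marginal cells of the stria vascularis and from vestibular hair cells. Cxcl14 encodes a CXC chemokine, in which one residue separates the first pair of cysteines, and its signaling receptor is not settled. Ccl21b encodes a CC chemokine, in which those cysteines are adjacent. CCL21 guides dendritic cells and T cells through the receptor CCR7 and is cleared by the scavenger receptor ACKR4. The mouse genome carries several near-identical Ccl21 genes.

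The coding stretches that hold these motifs are shown because they are what sets the 3 proteins apart. They were read 5′ to 3′ from GENCODE M21 transcripts on mm10, the build named for the files, with the motif codons in capitals. The Spp1 stretch lies in 1 exon (chr5:104439457-104439513, plus strand) and its capitals are the RGD codons. The Cxcl14 stretch (chr13:56295891-56296125, minus strand) and the Ccl21b stretch (chr4:42255833-42255974, plus strand) are spliced across an intron, and their capitals are the first cysteine codons.
Spp1: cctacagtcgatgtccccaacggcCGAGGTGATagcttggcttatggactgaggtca
Cxcl14: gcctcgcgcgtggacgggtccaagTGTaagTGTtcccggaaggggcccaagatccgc
Ccl21b: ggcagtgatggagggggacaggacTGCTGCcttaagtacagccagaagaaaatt

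The whole Spp1 coding sequence has 294 codons before the stop and 2 cysteine codons. Cxcl14 has 99 codons with 5 cysteines, and Ccl21b has 133 codons with 7. Spp1 (ENSMUSG00000029304) spans 104435118 to 104441050 on chromosome 5, in 7 exons. Cxcl14 (ENSMUSG00000021508) spans 56288643 to 56296551 on chromosome 13, in 4 exons. Ccl21b (ENSMUSG00000095675) spans 42255767 to 42256432 on chromosome 4, also in 4 exons.

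Reads of Ccl21b cannot be assigned to that gene alone. The tables list 9 Ccl21 genes, 5 on chromosome 4 and 4 on unplaced scaffolds. The coding sequence of Ccl21b (399 bases) did not differ at any base from those of Gm10591, Gm21541 and Gm13304. Ccl21a differed from Ccl21b at 2 coding positions, counted from 1 at the A of the start codon. A84T is synonymous, and T194C changes the amino acid of codon 65. Both positions are given here with the base that differs in capitals, because these are the only coding letters that separate the 2 chromosome 4 genes. The Ccl21b letters are also those of Gm10591, Gm21541 and Gm13304.
Ccl21b, coding 64 to 103: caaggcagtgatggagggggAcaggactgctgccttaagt
Ccl21a, coding 64 to 103: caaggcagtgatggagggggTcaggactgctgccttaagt
Ccl21b, coding 174 to 213: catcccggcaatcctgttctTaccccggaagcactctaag
Ccl21a, coding 174 to 213: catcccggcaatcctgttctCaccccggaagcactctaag

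Reads were 75 bases long, and each of the 328 windows of that length in the Ccl21b transcript also occurs in Gm10591, Gm21541 and Gm13304. Ccl21a shares 178 of them (54.3%). The annotated Ccl21b transcript has 402 bases, which is the coding sequence and the stop codon alone. Those of Ccl21a and Gm21541 have 870 bases and that of Gm13304 has 837, since they include untranslated ends. Reads from such ends therefore cannot count towards the Ccl21b row. The RefSeq windows around the gene start of Ccl21a and Gm21541 (Ccl21d) differed at 2 of 299 aligned bases.

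Spp1 was the most abundant of the 3 in differentiated cultures and the least regular in time. In unsorted cultures its TPM was 61.2 and 363.9 at D0, 52.0 and 80.2 at D2, 43.2 and 341.4 at D4, and 444.0 and 5062.5 at D10 (replicates 1 and 2). D0, D2 and D4 overlapped, and both D10 libraries lay above every earlier library. Spp1 thus did not climb from day to day: the step lay between D4 and D10.

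From D0 to D10 the Spp1 mean went from 213 ± 214 to 2753 ± 3266 TPM (SD, n = 2). The difference in log2(TPM + 1) was 3.32, with 2.84 in replicate 1 and 3.79 in replicate 2. It was 1.56 without D10 replicate 2, 2.04 without D0 replicate 1 and 5.07 without D10 replicate 1. From D4 to D10 it was 3.61, with 3.33 and 3.89. D4 minus D0 was -0.29 and D2 minus D0 was -1.20, both between groups that overlap. The replicates differed 11.4-fold at D10, beside a 12.9-fold ratio of the means.

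In sorted cultures Spp1 went from 3.60 and 40.5 TPM at D0 to 12732 and 7829 TPM at D10. The groups did not overlap, and the log2 difference was 9.50, with 11.43 in replicate 1 and 7.56 in replicate 2. At that level Spp1 was the fourth most abundant gene in 1 library and ranked 10 in the other, and it took 1.27% and 0.783% of all TPM. In unsorted LCP D10 replicate 2 it ranked 13.

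The sort went with lower Spp1 at D0 and higher Spp1 at D10. At D0 both sorted libraries (3.60 and 40.5 TPM) were below both unsorted ones (61.2 and 363.9). At D10 both sorted libraries were above both unsorted ones (444.0 and 5062.5). The ratio at D10 was 28.7 in replicate 1 and 1.55 in replicate 2.

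Cxcl14 started near 0 in culture and was higher at each later day in both replicates. Its TPM in unsorted cultures was 0.555 and 0.760 at D0, 1.80 and 5.40 at D2, 19.4 and 76.7 at D4, and 22.0 and 357.6 at D10. D0, D2 and D4 did not overlap with each other, while D4 and D10 did. The log2 difference from D0 was 1.36 at D2, 4.59 at D4 and 5.78 at D10. In replicate 1 the last step, D4 to D10, was 0.17, and in replicate 2 it was 2.21. Without D10 replicate 2 the difference of D10 from D0 was 3.80.

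In sorted cultures Cxcl14 was at 0.835 and 0.314 TPM at D0 and at 760 and 833 TPM at D10. The replicates at D10 lay within 1.10-fold of each other, the closest agreement of this gene in culture. The log2 difference was 9.00, with 8.70 and 9.31 in the replicates. Cxcl14 ranked 148 and 138 in these libraries. At D10 the sorted libraries were above the unsorted ones, and at D0 sorted and unsorted libraries overlapped.

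Ccl21b was at the bottom of the scale at the start of culture and reached its unsorted maximum at D4 in 1 replicate and at D10 in the other. It was listed at 0.0096 and 0.0797 TPM at D0, 0.276 and 2.30 at D2, 6.87 and 132.2 at D4, and 7.73 and 73.7 at D10. D0, D2 and D4 did not overlap with each other, and D4 and D10 did. The log2 difference from D0 was 0.98 at D2, 4.96 at D4 and 4.61 at D10. The value from D4 to D10 was 0.15 in replicate 1 and -0.84 in replicate 2. Without replicate 2 of the later day the difference from D0 was 2.91 at D4 and 3.06 at D10.

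Ccl21b was listed at 0 in both sorted LCP D0 libraries, so no fold is given against them. It reached 181.6 and 109.3 TPM in sorted LCP D10. These lay above the unsorted D10 libraries (7.73 and 73.7), but 1 unsorted D4 library, at 132.2, lay between them.

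**Figure D1:**
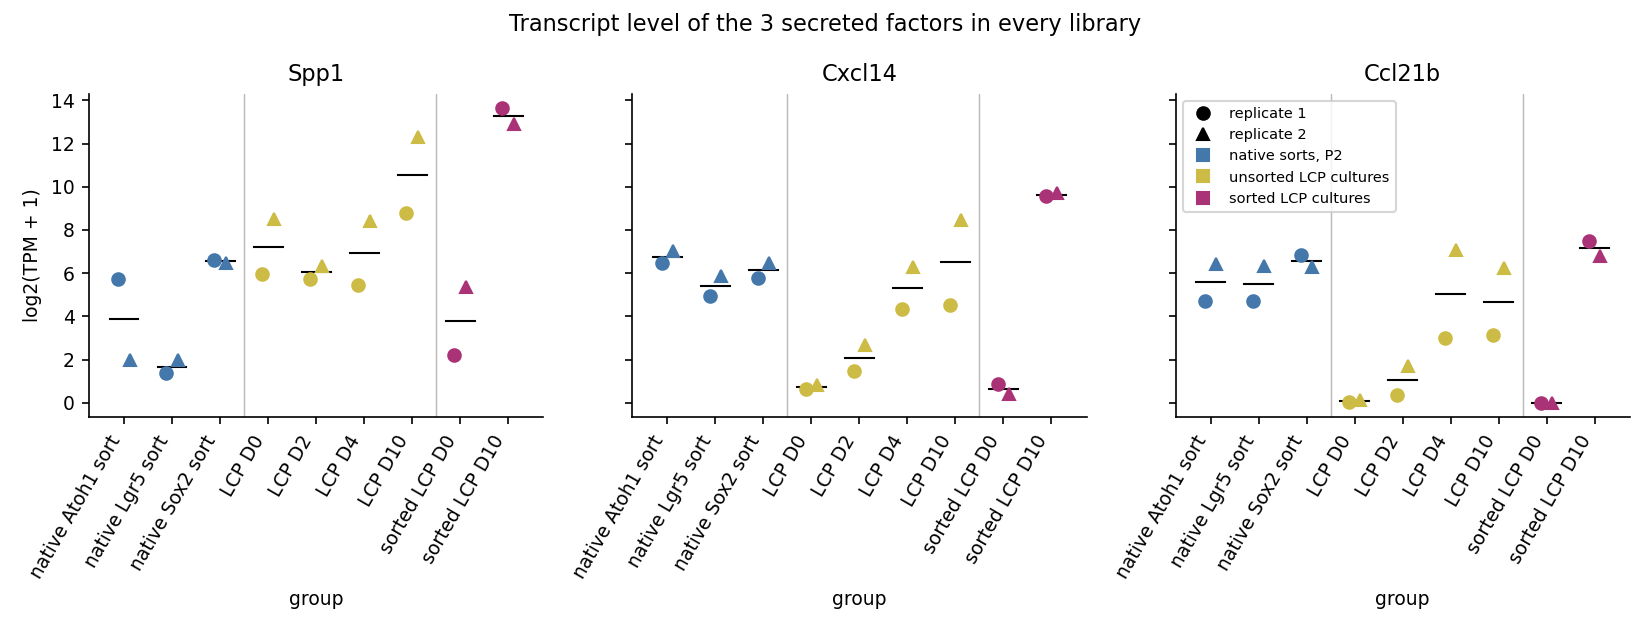
Level of Spp1, Cxcl14 and Ccl21b as log2(TPM + 1) in each of 18 libraries, by group (circles, replicate 1; triangles, replicate 2; bars, mean of the 2). Sorted LCP D10 holds the highest mean of each gene, the replicates of unsorted D4 and D10 lie far apart, and native Spp1 is below both D10 culture groups while native Cxcl14 and Ccl21b overlap unsorted D10.

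At each day, D0 included, unsorted replicate 2 was above replicate 1 for all 3 genes. Spp1 at D0 was at 61.2 and 363.9 TPM. The hair cell marker sum was also higher in replicate 2, at 32.7 and 37.0 TPM at D0 and 48.9 and 207 at D2. That sum was 224 and 920 TPM at D4 and 501 and 812 at D10. Its part in the gap between replicates was not tested. The 2 replicates also carry different sequencing dates in the labels at every day, and all replicate 2 libraries share 1 date, so the replicate 2 values above are within-date changes. With a sequencing date term D10 minus D0 was 2.52 for Spp1, 5.71 for Cxcl14 and 4.12 for Ccl21b, beside 3.32, 5.78 and 4.61. D4 minus D0 did not change. Replicate 1 thus differs in date between unsorted D0 and D10, so day and date cannot be told apart there.

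Some of the 9 copies carry the same values as the Ccl21b row, and others do not. Gm10591, Ccl21c and 1 scaffold copy of Ccl21b equalled Ccl21b in each of 18 libraries to within 0.1%. In the 14 libraries where the 9 rows summed to over 1 TPM, Ccl21b held 8.03 to 14.4% of the sum.

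The sum of the copies, a quantity chosen after the tables were seen, was 0.0742 and 0.577 TPM at unsorted D0, 1.99 and 15.98 at D2, 55.2 and 1103 at D4, and 72.8 and 613 at D10. It was 0.802 and 0.0665 TPM in sorted D0 and 1454 and 925 in sorted D10. The groups had the same order by this sum as by the Ccl21b row, except that sorted and unsorted D0, both near 0, traded places. The sum in sorted D0 replicate 1 came from Gm13304 (0.230 TPM) and a scaffold copy of Ccl21a (0.571 TPM), so Ccl21 reads were not absent there although the Ccl21b row is at 0.

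Ccl21a itself, on chromosome 4 at 42772860 to 42773993, was at 56.4 and 116.3 TPM in the Atoh1 sort, 35.6 and 106.6 in the Lgr5 sort, and 161.5 and 139.7 in the Sox2 sort. In sorted LCP D10 Ccl21a reached 234.4 and 147.4 TPM and it was listed at 0 in both libraries of sorted and of unsorted D0. Gm13304 was at 251.2 and 215.2 TPM in sorted LCP D10 and Gm21541 at 116.5 and 52.9. The scaffold copy of Ccl21a was at 77.2 and 12.1 TPM in the Atoh1 sort, where the Ccl21b row was lower in replicate 1 than in replicate 2. The second scaffold copy of Ccl21b stayed at 3.88 TPM or below in every library, with that value at D4. How the deposited values divide reads among these copies is uncertain.

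**Figure D2:**
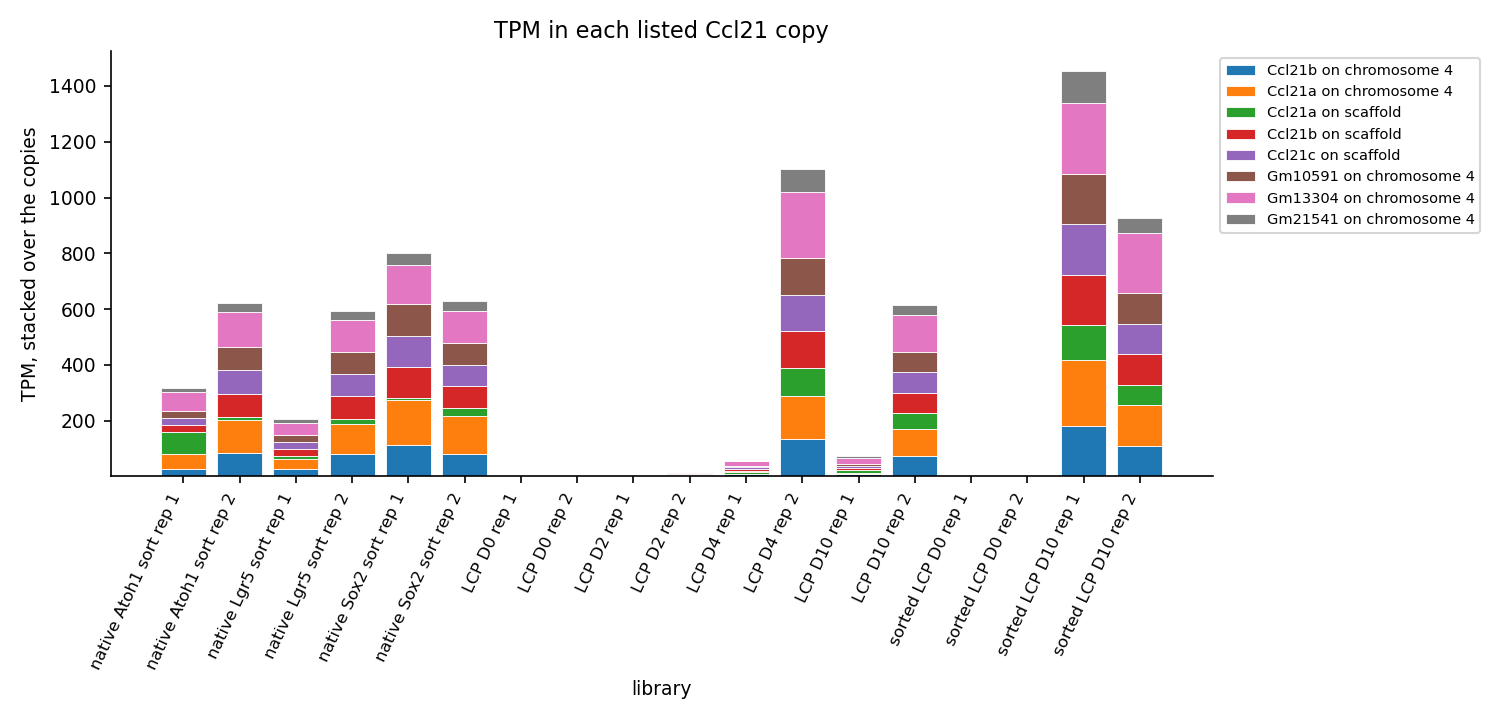
TPM listed for each Ccl21 gene, stacked by library (the 2 scaffold copies of Ccl21b share a color). Native libraries total 206 to 800 TPM and sorted LCP D10 925 and 1454, all 4 D0 libraries stay under 1, and Ccl21b on chromosome 4 forms only a small slice of each bar.

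The native sorts give the levels that the cultures can be set beside, and here the members could be tested. The question was whether hair cells and supporting cells differ in them. Spp1 was at 52.8 and 3.00 TPM in the Atoh1 sort, 1.58 and 2.92 in the Lgr5 sort, and 97.2 and 88.7 in the Sox2 sort. The Atoh1 libraries differed 17.6-fold from each other, while both Sox2 libraries were high and both Lgr5 libraries low.

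Cxcl14 was at 87.3 and 128.8 TPM in the Atoh1 sort, 29.4 and 57.3 in the Lgr5 sort, and 54.2 and 87.7 in the Sox2 sort. The Lgr5 libraries were below both Atoh1 libraries, and the Sox2 libraries overlapped both other sorts. Ccl21b was at 25.4 and 84.2 TPM in the Atoh1 sort, 25.0 and 79.8 in the Lgr5 sort, and 112.7 and 78.3 in the Sox2 sort. All 3 sorts overlapped in Ccl21b.

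With Atoh1 set against the average of Lgr5 and Sox2, 0 of 3 passed a limma test adjusted over all 20463 genes at 0.05, where 0.821% of all genes passed (0.318% higher, 0.503% lower). The log2 difference was -0.24 for Spp1 (SE 1.30, limma adjusted p = 0.99), 0.98 for Cxcl14 (SE 0.86, adjusted p = 0.738) and -0.48 for Ccl21b (SE 1.06, adjusted p = 0.933). Before adjustment the smallest limma p was 0.279, for Cxcl14. In the same comparison 0 of 10 hair cell markers and 0 of 10 supporting cell markers were called. Myo7a and Pou4f3, which define hair cells, differed by 0.77 and 0.98 (limma adjusted p = 0.626 and 0.574). These SEs leave room for differences of several fold in either direction. Without Atoh1 replicate 2 the Spp1 difference was 1.64, and without Atoh1 replicate 1 that of Ccl21b was 0.37, so neither sign is settled.

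Between the Lgr5 and Sox2 sorts, 0 of 3 passed in limma as well, against 0.557% of all genes (0.0538% higher and 0.503% lower in the Lgr5 sort). Spp1 had the largest difference of the 3, -4.88 on the log2 scale (SE 1.5), with both Lgr5 libraries below both Sox2 libraries. Its limma p was 0.00716 before and 0.377 after adjustment over all genes. Cxcl14 differed by -0.73 (SE 1.00, limma adjusted p = 1) and Ccl21b by -1.05 (SE 1.22, adjusted p = 1). The same spread is used for all groups, so the wide culture replicates of Spp1 enter its SE here.

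Genes of other cochlear cell types differed between the same sorts as Spp1. Pmp22, a myelin gene of glia, was at 1.95 and 5.49 TPM in the Lgr5 sort and at 95.1 and 229.8 for Sox2 (log2 difference -5.09, SE 0.57, limma adjusted p = 0.00136). Mbp, another myelin gene, was at 5.29 and 21.7 TPM in the Lgr5 sort and at 170.4 and 421.9 for Sox2 (-4.49, SE 0.64, limma adjusted p = 0.00731). In the Atoh1 sort Pmp22 was at 9.89 and 7.08 TPM and Mbp at 9.87 and 11.99. The call of Mbp was lost without Sox2 replicate 2 (limma adjusted p = 0.0909).

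The sum of 8 markers of the stria and other cochlear epithelium ranged from 332 to 1847 TPM for Sox2 and from 26.2 to 71.3 for Lgr5. Oc90, the main otoconial protein and an epithelial gene outside the organ of Corti, made most of it, at 289 and 1762 TPM in the Sox2 sort (log2 difference -5.36, SE 1.29, limma adjusted p = 0.145). Bmp4 of this list was also higher for Sox2, averaging 57.2 TPM against 16.2 for Lgr5. Lmx1a and Kcnq1 went the other way, averaging 8.94 and 2.37 TPM for Lgr5 and 2.59 and 1.06 for Sox2. The sum therefore does not stand for each gene of the list. Of 5 tested markers of that list only Otx2, a transcription factor, was called (log2 difference -1.86, limma adjusted p = 0.0397), and it was lost in 3 of 4 fits without 1 library and with a replicate block (0.0577). The part of these cell types in the Spp1 level was not tested.

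In the Atoh1 sort, replicate 1, with 52.8 TPM of Spp1, also had the higher sum of 10 immune markers (15.7 against 3.34 TPM). Its Tyrobp, a signaling adaptor of myeloid cells, was at 2.53 against 0.389 TPM, and its Oc90 at 112 against 19.1. Ptprc, the pan-leukocyte gene CD45, was at 0.0109 and 0.0938 TPM, the lower value in replicate 1. In the Sox2 sort, where Spp1 was highest among native cells, Tyrobp was listed at 0 in both libraries. Their part in the Spp1 level was not tested.

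**Figure D3:**
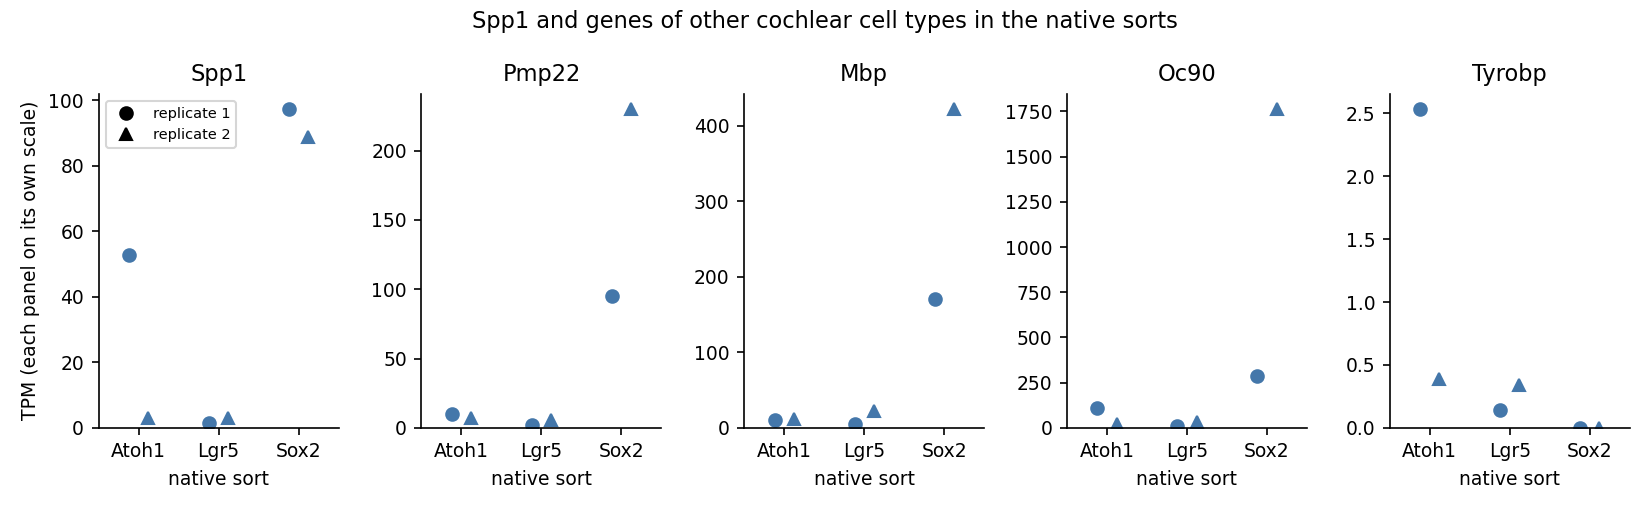
TPM of Spp1 beside Pmp22 and Mbp (myelin), Oc90 (epithelium outside the organ of Corti) and Tyrobp (myeloid cells) in the 6 native libraries, each panel on its own linear scale from 0. Spp1, Pmp22, Mbp and Oc90 are highest in the 2 Sox2 libraries, and the Atoh1 library with 52.8 TPM of Spp1 also has the highest Tyrobp.

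Ordered by mean, Spp1 ran from sorted LCP D10 (10280 ± 3467 TPM, SD, n = 2) through LCP D10, D0 (213) and D4 (192), the Sox2 sort (93.0 ± 6.01), D2 (66.1), the Atoh1 sort (27.9 ± 35.2) and sorted D0 (22.1) to the Lgr5 sort (2.25 ± 0.953). Neighbors overlapped from D0 through the Sox2 sort and from D2 through sorted D0. Cxcl14 ran from sorted D10 (796) through LCP D10 (190), the Atoh1 sort (108), the Sox2 sort (71.0), D4 (48.1) and the Lgr5 sort (43.3) to D2 (3.60), D0 (0.657) and sorted D0 (0.574). Sorted D10 stood clear of the next group, and the 5 groups after it overlapped with their neighbors.

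Ccl21b ran from sorted D10 (145) through the Sox2 sort (95.5), D4 (69.5), the Atoh1 sort (54.8), the Lgr5 sort (52.4) and LCP D10 (40.7), with every neighbor overlapping, down to D2 (1.29), D0 (0.0447) and sorted D0 (0). Against the Atoh1 sort, sorted LCP D10 was 2.65-fold higher in mean TPM of Ccl21b, 7.37-fold in Cxcl14 and 369-fold in Spp1. The nearest libraries of the 2 groups were at 109.3 and 84.2 TPM for Ccl21b, 760 and 128.8 for Cxcl14, and 7829 and 52.8 for Spp1. The 3 genes were chosen for rises in culture, so these values are a description. Of the 3, Spp1 had the largest such ratio, and the lower unsorted D10 library, at 444.0 TPM, was above all 6 native libraries.

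Hair cell markers give another axis along which the 3 genes can be laid out. Over 18 libraries, the correlation of log2(TPM + 1) with the hair cell marker sum was 0.896 for Cxcl14, 0.926 for Ccl21b and 0.199 for Spp1. Over the 12 culture libraries it was 0.918, 0.924 and 0.782. Cxcl14 and Ccl21b had r = 0.940 with each other over 18 libraries, while Spp1 had 0.483 with Cxcl14 and 0.303 with Ccl21b. Over the 12 culture libraries these were 0.969, 0.871 and 0.821. Libraries of 1 group share their condition, and all values come from the same libraries, so these are descriptions without a test.

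**Figure D4:**
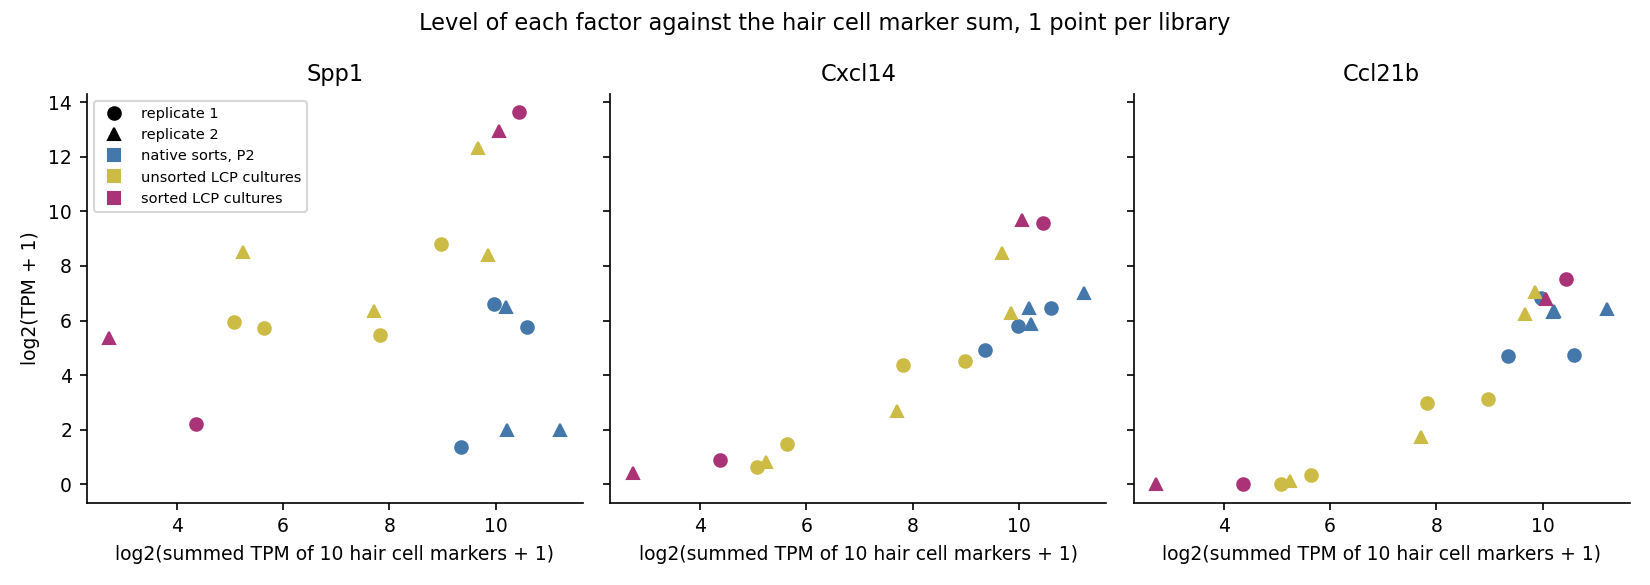
Level of each gene as log2(TPM + 1) against the log2 of the summed TPM of 10 hair cell markers plus 1, with 1 point per library. Native libraries (blue) overlap unsorted D10 in the level of Cxcl14 and Ccl21b. They lie below sorted D10 in Cxcl14 and below both D10 groups in Spp1 (r of 0.896 for Cxcl14, 0.926 for Ccl21b and 0.199 for Spp1).

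The genes with the most similar pattern over 18 libraries were named for each member. For Cxcl14 they were Lrtm2 (r = 0.981), Ccdc146 (0.979), Enkur (0.976), Fam161a (0.975) and Cys1 (0.975). Enkur and Cys1 are known from cilia. For Ccl21b they were, after the copies Ccl21c, scaffold Ccl21b and Ccl21a (0.991), Nefl (0.979), a neurofilament subunit, and Acbd7 (0.969). For Spp1 the values were lower: Tmem130 (0.884), Mapt (0.870), which encodes the microtubule protein tau, Plppr5 (0.869), Shtn1 (0.858) and Pcdh20 (0.855), a protocadherin.

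No tested receptor gene of osteopontin passed as higher in culture. Of 10 receptor genes 9 were tested. In unsorted cultures, D4 against D0, 1 fell and none rose (all genes: 3.39% called, 1.09% higher, 2.29% lower). In D10 against the same D0 libraries, again 1 fell and none rose (7.39% called, 3.05% higher, 4.34% lower). In sorted cultures 2 fell and none rose (24.0% called, 13.3% higher, 10.7% lower). The receptors' median log2 difference was -0.77, -1.24 and -1.35 in these comparisons, beside -0.06, -0.08 and 0.02 over all genes tested.

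Itga9, an integrin subunit that binds a cryptic site of osteopontin, was the receptor called in all 3 culture comparisons. It went from 70.6 and 57.4 TPM at unsorted D0 to 15.6 and 10.7 at D4 and to 4.65 and 6.82 at D10. The log2 difference was -2.22 at D4 (SE 0.46, limma adjusted p = 0.0218), lost in 3 of 4 fits without 1 library, and -3.28 at D10 (adjusted p = 0.00163). In sorted cultures it went from 43.2 and 25.3 to 4.77 and 2.70 TPM (-2.89, limma adjusted p = 0.00112). Itgb5, partner of the alpha-v subunit, fell in sorted cultures from 52.5 and 90.4 to 7.72 and 17.8 TPM (-2.45, SE 0.50, limma adjusted p = 0.00433; 0.0544 without sorted D10 replicate 1).

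Itgb1, the most abundant receptor gene on average, was at 141 TPM at unsorted D0 and 121 at D10, and at 78.5 and 29.7 in sorted D0 and D10 (log2 difference -1.35, SE 0.48, limma adjusted p = 0.061). Cd44 averaged 36.1 TPM at unsorted D0 and 16.2 at D10, and 17.8 and 7.48 in the sorted groups. Itgb3, the classical alpha-v partner in osteoclasts, was lower in the Lgr5 than in the Sox2 sort. It averaged 0.232 and 2.50 TPM (limma adjusted p = 0.0384), the 1 of 9 receptors called there (all genes: 0.557%). That call was lost in each of 4 fits without 1 library (limma adjusted p up to 0.238) and with a replicate block (0.0565). Between hair and supporting cell sorts 0 of 9 were called (all genes: 0.821%), and Itgb1 differed by -1.07 (SE 0.42, limma adjusted p = 0.323).

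Of 7 enzymes known to phosphorylate, cleave or cross-link osteopontin 4 were tested. None was called at D4, where 3.39% of all genes were. At D10 of unsorted cultures 1 rose, beside 3.05% of all genes: Fam20c, the secretory pathway kinase that phosphorylates it. Fam20c went from 20.3 and 33.1 TPM at D0 to 76.7 and 147 at D10 (log2 difference 1.99, SE 0.53, limma adjusted p = 0.0401), a call lost in 3 of 4 fits without 1 library. In sorted cultures Fam20c was at 56.1 and 14.4 TPM at D0 and 27.3 and 23.3 at D10 (-0.18, limma adjusted p = 0.862).

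In sorted cultures 2 of the 4 enzymes fell and none rose, beside 10.7% lower and 13.3% higher among all genes. Tgm2, a transglutaminase, went from 20.2 and 35.3 to 4.18 and 4.63 TPM (log2 difference -2.36, limma adjusted p = 0.0143), and lost its call in 3 of 4 fits without 1 library. Acp5, a phosphatase, averaged 4.21 TPM at D0 and was listed at 0 in both sorted D10 libraries (limma adjusted p = 0.00648). None of the 4 was called between native sorts, where 0.821% (hair against supporting cells) and 0.557% (Lgr5 against Sox2) of all genes were.

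The other SIBLING genes stayed near 0 where Spp1 was high. Dspp was listed at 0 in every library, Mepe reached 0.0725 TPM and Ibsp 0.288 TPM at most. Dmp1, the 1 that was tested, was at most 5.51 TPM and was called in no comparison. Its means were 0.0804 TPM in sorted D0 and 0.127 in sorted D10.

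Osteoblast, immune and lymphatic endothelial markers were low in sorted LCP D10, where the hair cell marker sum was 1387 and 1063 TPM. The sum of 8 markers of the stria and other cochlear epithelium was 8.96 and 10.7 TPM in these libraries. The sum of 8 osteoblast markers was 0.985 and 1.18 TPM there, each marker under 1 TPM in both libraries. The sum of 10 immune markers was 1.42 and 1.34 TPM, again each under 1 TPM, where Spp1 stood at 12732 and 7829. The sum of 6 lymphatic endothelial markers was 1.59 and 1.94 TPM, with Lyve1, a lymphatic hyaluronan receptor, listed at 0. The immune sum was 8.31 and 0.857 TPM in unsorted D10 (replicates 1 and 2), and the osteoblast sum 1.88 and 2.65. The part of these cell types in the levels of the 3 factors was not tested.

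Of 3 tested osteoblast and 2 tested lymphatic markers none rose in culture. Among all genes 1.09% rose at D4, 3.05% at D10 and 13.3% in sorted cultures, and 2.29%, 4.34% and 10.7% fell. Col1a1 fell at D4 (log2 difference -2.04, limma adjusted p = 0.00746; 0.0777 at most without 1 library) and Alpl, a phosphatase of mineralizing cells, and Col1a1 at D10 (-1.95 and -2.29, adjusted p = 0.0119 and 0.0023). The call of Alpl was lost in 3 of 4 fits without 1 library. Pdpn, a mucin-like protein of lymphatic endothelium and of cochlear epithelium, fell at D10 (-1.80, limma adjusted p = 0.0353, lost in each of 4 fits without 1 library and, at 0.0818, after rescaling) and in sorted cultures (-2.40, adjusted p = 0.0033). None of 3 tested immune markers was called in any comparison, beside 0.557% to 24.0% of all genes.

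Hair cell markers rose over the same days as Cxcl14 and Ccl21b, while Spp1 rose only between D4 and D10. At D4 7 of 10 rose, at D10 9 of 10, and in sorted cultures 10 of 10, and none fell. Among all genes 1.09%, 3.05% and 13.3% rose in these comparisons. In sorted cultures Lhfpl5, Gfi1 and Otof had log2 differences of 7.71, 7.47 and 7.22 (limma adjusted p = 0.00018, 4.23e-05 and 0.000139). At D4, 6 of the 7 calls were lost in 3 of 4 fits without 1 library, and that of Gfi1 (log2 difference 4.23, limma adjusted p = 0.003) held in all 4. At D10, 5 of the 9 calls held in all 4 such fits, and in sorted cultures all 10 did. Of 10 supporting cell markers 3 fell in each culture comparison and none rose, beside 2.29%, 4.34% and 10.7% of all genes that fell. Among the markers that fell was Hey1, a Notch target, with -4.52 in sorted cultures (limma adjusted p = 0.00439). At D4 each of the 3 was lost in at least 3 of 4 fits without 1 library. At D10 Hes5 and Hey1 were lost in 3 and Ngfr in 2, and in sorted cultures Gjb2 was lost in 2.

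The mesenchyme marker sum went the other way in sorted cultures, from 661 and 1619 TPM at D0 to 48.8 and 63.6 at D10. Dcn and Lum made most of it, averaging 658 and 478 TPM in sorted D0. The median log2 difference of the tested markers was -0.18 in sorted cultures, beside 0.02 over all genes tested. Among all genes 10.7% were lower and 13.3% higher there. Of 7 tested markers 3 fell and none rose: Lum (log2 difference -4.82), Dcn (-3.92), both matrix proteoglycans, and Twist1 (-1.59; limma adjusted p = 0.0448, lost in 3 of 4 fits without 1 library). In unsorted cultures the sum was 1010 to 1533 TPM at D0 and 449 to 512 at D10. Col3a1, Pdgfra and Col1a2 averaged 0.750, 0.675 and 0.877 TPM at unsorted D0 and 4.47, 1.76 and 1.32 at D10. The rest of the list averaged lower at D10. The part of mesenchyme cells in the rise of the 3 factors was not tested.

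The receptor gene of CCL21 was at or near 0 in all libraries. Ccr7 was listed at 0 in all native libraries and in sorted LCP D10, and at most at 0.0643 TPM elsewhere. Ackr4, the scavenger receptor, reached 19.6 TPM in the Lgr5 sort. It was at 6.69 and 1.06 TPM at unsorted D0, 0.0828 and 0.401 at D10, and 1.58 and 0.883 in sorted D10. Its difference at unsorted D10 was -1.69 (SE 0.77, limma adjusted p = 0.242) and it was called in no comparison. Ccl19, the other CCR7 ligand, averaged 1.13 TPM in sorted D10 and 1.01 TPM or less in the other groups, and was not called either.

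Calls among other chemokine genes were few. In sorted cultures 1 of 8 CC ligands, 1 of 8 CXC and related ligands and 1 of 6 receptors tested were called, beside 24.0% of all genes. Of 20 other CC ligand genes 8 were tested, and 1 was called in the 5 comparisons. It rose in sorted cultures, where 13.3% of all genes rose: Ccl27a, a skin chemokine, went from 42.0 and 44.4 to 107.9 and 119.3 TPM (log2 difference 1.37, SE 0.28, limma adjusted p = 0.0041). In unsorted cultures it was at 41.4 and 41.7 TPM at D0 and 38.8 and 53.1 at D10 (limma adjusted p = 0.891). Ccl27a was also the most abundant of these ligands in native sorts, at 193 and 150 TPM in the Atoh1 sort. Ccl25, a thymic and gut chemokine, averaged 7.82 TPM in sorted D0 and 15.4 in sorted D10 (0.90, SE 0.35, limma adjusted p = 0.0825).

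Of 16 other CXC and related ligand genes 8 were tested, and 1 fell in sorted cultures, where 10.7% of all genes fell: Cxcl1, a neutrophil chemokine, from 19.2 and 21.4 to 1.73 and 1.61 TPM (log2 difference -3.00, limma adjusted p = 0.0294). That call was lost in each of 4 fits without 1 library (limma adjusted p up to 0.116). Cxcl12, the stromal ligand of CXCR4, averaged 14.8 TPM at unsorted D0 and 2.05 at D10 (-2.30, SE 0.86, limma adjusted p = 0.143). The median over the CXC list was 0.04 at unsorted D10 and -0.76 in sorted cultures.

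Of 23 chemokine receptor genes 6 were tested, and 1 fell in sorted cultures (all genes: 10.7%): Ackr3, the atypical receptor of CXCL12, from 16.7 and 2.32 to 0.432 and 0.680 TPM (log2 difference -2.31, limma adjusted p = 0.0378, lost in 3 of 4 fits without 1 library). Cxcr4, its signaling counterpart, averaged 5.03 TPM in sorted D0 and 0.382 in sorted D10. None of the tested chemokine ligands or receptors was called between native sorts. Among all genes 0.821% were called between hair and supporting cell sorts and 0.557% between the Lgr5 and Sox2 sorts. The filter passes genes that are high in any group, so these counts describe the genes tested and not the whole families.

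**Figure D5:**
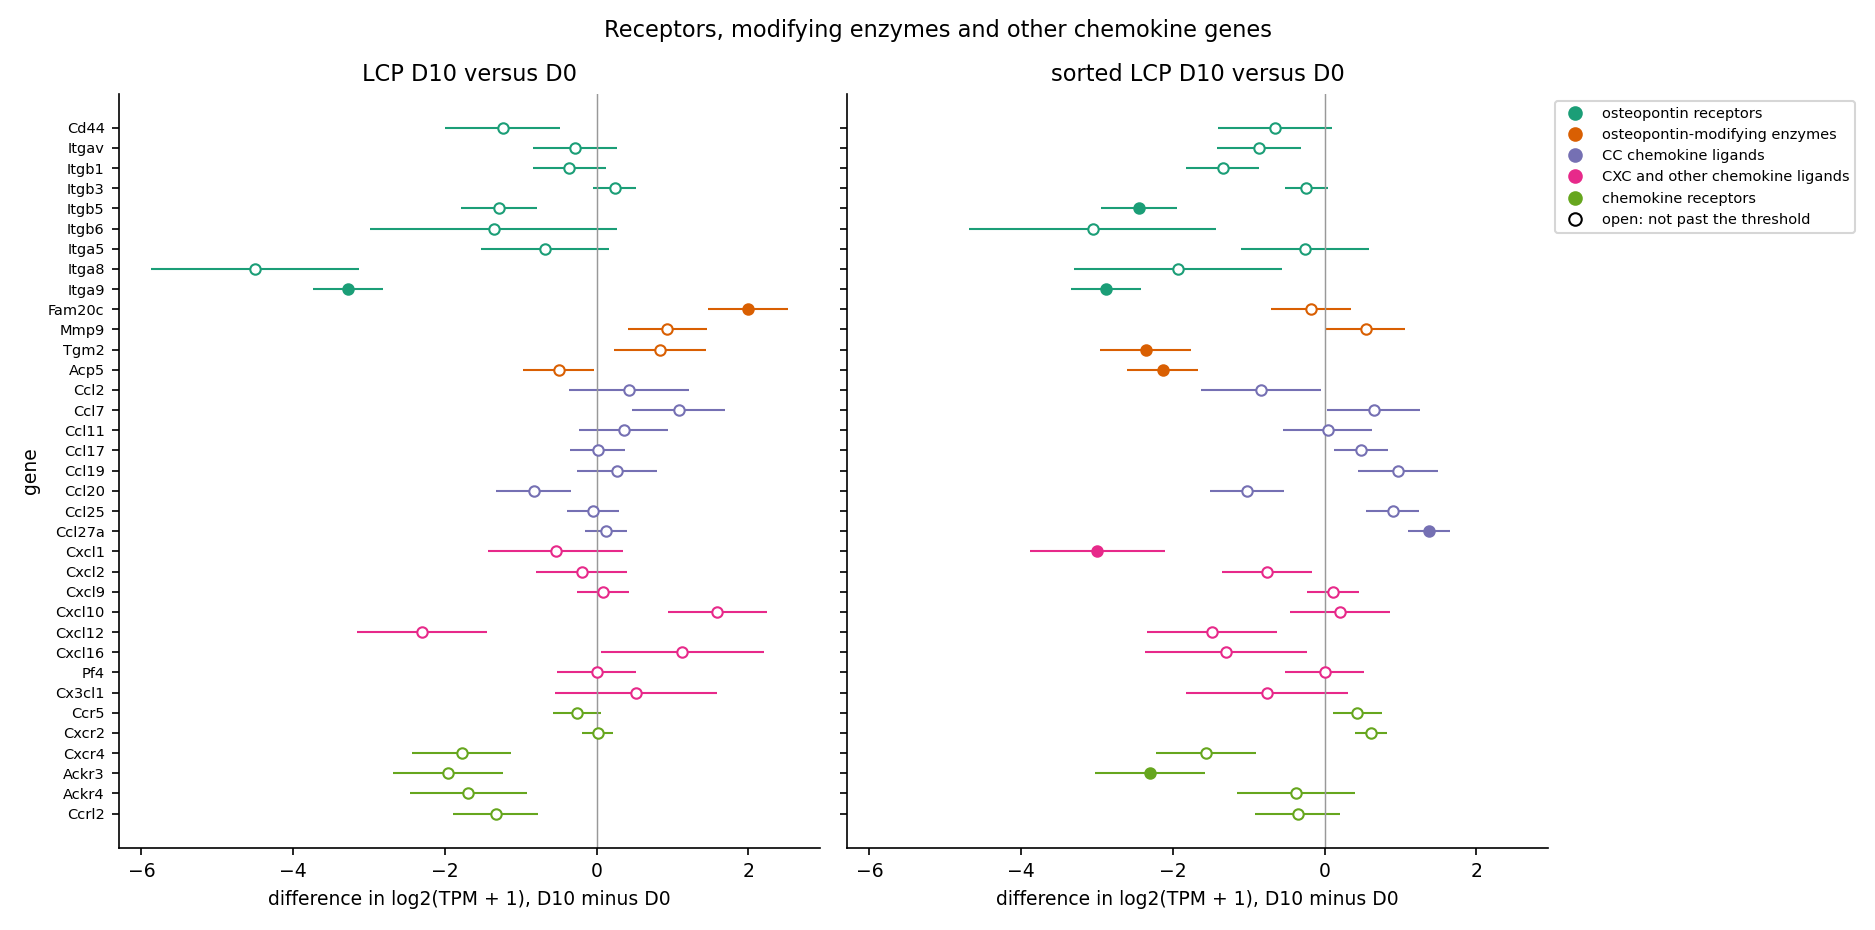
Difference in log2(TPM + 1), D10 minus D0, with its SE, for each tested receptor and modifying enzyme of osteopontin and each other tested chemokine ligand and receptor, in unsorted (left) and sorted cultures (right); filled points passed the limma threshold of 0.05. Itga9 lies left of 0 and filled in both panels, and the filled points at right of 0 are Fam20c in unsorted and Ccl27a in sorted cultures.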

How the data were processed

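RNA was sequenced as single-end reads of 75 bases after cDNA amplification from 2.5 ng with kits that do not mark strand, per the labels' protocols. The authors deposited TPM, each library summing to 1000000. Per the submitters' processing notes, the tools were STAR, Salmon, FastQC and DESeq2 and the build mm10, with neither versions nor roles. TPM keep no depth, so no counting intervals are given, and a rise in abundant genes lowers the rest.

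Groups and replicate numbers came from the titles. Each sample is from the ears of 1 pup per the labels, in wording shared by all samples, so p-values may measure technical spread in cultures. The labels' treatment protocol (tamoxifen, beta-catenin allele) fits no title and was set aside.

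Genes reaching 1 TPM in 2 or more libraries were tested as log2(TPM + 1). limma 3.58.1 in R 4.3.3 (a mean per group, trend, 9 residual and 2.8 prior degrees of freedom) was fitted to all 18 libraries, with Benjamini-Hochberg adjustment over 20463 genes and a threshold of 0.05. It was tested on simulated data. Tables used Python 3.11.15, pandas 2.3.3 and numpy 2.4.6.

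The members and gene lists were chosen with earlier results of these data known. From each list and comparison, the text names up to 3 called genes, by size of difference, and the most abundant gene that was not called, and per member the 5 genes of highest Pearson r with a group mean of at least 10 TPM. Other named genes (Cd44, Cxcr4, Tyrobp, Ptprc, Oc90, Lyve1, Ccl19, Ccr7 and the other SIBLING genes) were picked after their values were seen. Marker lists are named in part, and some results are not reported here.

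Replicate numbers coincide with label dates: every replicate 2 shares a sequencing date, and some extraction dates fall after sequencing. Deviations of same-numbered libraries from their group means correlated at 0.0993 to 0.141 among native sorts, 0.411 for LCP D0 with D4, 0.211 for LCP D0 with D10 and 0.143 in sorted cultures, so a replicate block was fitted as an alternative. Other alternatives were the pseudocount, the filter, rescaling, a sequencing date term, only the libraries compared and leaving out each library.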

Additional observations from a re-analysis of the deposited data

How the results depend on the processing

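Under the alternatives run, all 3 genes stayed past no threshold among native sorts, and Cxcl14 and Ccl21b stayed higher at D4 and D10 than at D0. Leaving out 1 library gave log2 differences between -2.11 and 1.64 for Spp1 and between -1.32 and 0.37 for Ccl21b in hair against supporting cell sorts, and between -1.77 and 1.19 for Spp1 in D4 against D0 (0.98 without D0 replicate 2). In D10 against D0 it gave 1.56 to 5.07 for Spp1, 3.80 to 7.76 for Cxcl14 and 3.06 to 6.16 for Ccl21b, and in D4 against D0 3.63 to 5.55 for Cxcl14 and 2.91 to 6.995 for Ccl21b. A pseudocount of 0.1 gave 7.42 for Ccl21b in D10 against D0, and in sorted cultures 10.46 for Ccl21b and 10.32 for Cxcl14, as low values then weigh more. Ccl21 copies summed, an alternative chosen after seeing the data, gave 7.35 and 9.71.

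The replicate block changed no call of the 3 genes and moved no count of calls by over 1.5 times. It called 229 genes in hair against supporting cells and 102 in Lgr5 against Sox2, and gave Spp1 a limma adjusted p of 0.302 in the latter.

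Counts of genes called over all genes moved more. For hair against supporting cells they were 105 with a pseudocount of 0.1, 352 with no filter, 53 with a filter of 5 TPM, 10 with only the libraries compared, and 73 (without Atoh1 replicate 2) to 194 without 1 library, beside 168. For Lgr5 against Sox2 they were 30, 232, 19 and 0 in the same order, 73 with a sequencing date term, and 45 to 285 without 1 library, beside 114. For D4 against D0 they were 1148 with a sequencing date term, 0 with only the libraries compared and 183 to 629 without 1 library, beside 693. For D10 against D0 they were 0 and 479 to 1392, beside 1512, and for sorted cultures 2032 and 2440 to 4101, beside 4911. Fits of only the libraries compared have fewer samples for the spread. A lone library is assumed to vary like the other groups. With 2 replicates and unknown depth, values under about 1 TPM carry little weight.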
